A study of Mus musculus with 8 samples.

Results

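Transcripts of 10 circadian clock genes were followed in the livers of PiZ mice with and without CHOP, a transcription factor of the stress response. The genes are the activators Arntl, Clock and Npas2, the repressors Per1, Per2, Per3 and Cry1, the nuclear receptors Nr1d1 and Nr1d2, and the output factor Dbp. These members were taken by gene symbol from the 52551 rows of each count file, of which 52403 had an Ensembl ID listed in GENCODE mouse release M21, and all 10 were found. The libraries were made from total liver RNA by QuantSeq, which sequences transcripts from their 3' end. Both groups consisted of 6-week-old male C57BL/6 mice that carried the PiZ transgene, which encodes the misfolding Z form of human alpha-1 antitrypsin, a protease inhibitor secreted by the liver. The PiZ group had 4 libraries, and the PiZ/Chop-/- group, in which Chop (the gene Ddit3) was also deleted, had 4. The transgene was thus common to both groups, the wild-type group named in the study's design text was not analysed here, and neither the time of day at which livers were taken nor the feeding state is given in the labels.

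The clock is a feedback loop that runs in nearly every liver cell. BMAL1, the protein of Arntl, pairs with CLOCK or NPAS2 and binds E-boxes to switch on the Per, Cry, Nr1d and Dbp genes. PER and CRY proteins then block that pair, while the NR1D receptors (REV-ERB alpha and beta) repress Arntl, Npas2 and Cry1 through ROR elements, and DBP acts on D-boxes in genes such as Per3. In mouse liver the transcripts peak in a fixed order over the day. Nr1d1 leads in the light phase, Dbp, Nr1d2 and Per3 follow later in that phase, Per1 and Per2 peak around dusk, Cry1 in the night, and Arntl, Npas2 and, with a shallow rhythm, Clock toward dawn.

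Promoter sequence was available for 9 of the 10 members in RefSeq (GRCm38.p6), and 5 of these held the letters of a clock element between 250 bases before and 50 bases after a transcript start. The letters searched, on both strands, were CACGTG (E-box), CACGTT (an E-box variant), TTATGTAA or TTACGTAA (D-box) and TAGGTCA or TGGGTCA (the core of a ROR element). Among all 32851 promoters of 300 bases, 7.15% held the E-box, 4.68% the variant, 1.06% the D-box and 6.45% the ROR core. No motif overlapped another in the sequences shown. The 250 bases before the start are shown for 4 of these 5, and a shorter stretch for Arntl, to let the letters be seen in place. Clock, Npas2, Nr1d2 and Dbp had an entry with no match in this window. A match is a description of letters, not of binding. Sequences run 5′ to 3′ on the strand of the gene, with matches in capitals. Per1 (chr11:69098699-69098948, plus strand) has an E-box whose first base lies at -166 from the start, counting the base before the transcript as -1. Per3 (chr4:151044666-151044915, minus strand) has D-boxes at -205 and -158. Cry1 (chr10:85185055-85185304, minus strand) has the E-box variant at -79 and an E-box at -60, and Nr1d1 (chr11:98775378-98775627, minus strand) has the variant at -28, read in both as AACGTG on the strand of the gene. The RefSeq start used for Per1 lies inside the span that GENCODE gives the gene. A further RefSeq start of Per1 had no match, and neither did a further start of Arntl. The 9 members had 13 starts in all, so some genes were searched more than once, while the percentages above are per promoter.
Per1: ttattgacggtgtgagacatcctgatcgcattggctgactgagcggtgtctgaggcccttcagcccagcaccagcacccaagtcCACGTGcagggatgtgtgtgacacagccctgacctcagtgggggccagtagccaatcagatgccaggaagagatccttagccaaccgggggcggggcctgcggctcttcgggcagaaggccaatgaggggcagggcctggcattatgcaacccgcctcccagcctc
Per3: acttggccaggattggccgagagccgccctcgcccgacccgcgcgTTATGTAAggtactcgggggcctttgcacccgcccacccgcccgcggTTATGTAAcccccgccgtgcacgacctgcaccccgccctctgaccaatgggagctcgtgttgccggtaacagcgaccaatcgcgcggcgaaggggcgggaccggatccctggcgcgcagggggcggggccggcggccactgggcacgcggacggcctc
Cry1: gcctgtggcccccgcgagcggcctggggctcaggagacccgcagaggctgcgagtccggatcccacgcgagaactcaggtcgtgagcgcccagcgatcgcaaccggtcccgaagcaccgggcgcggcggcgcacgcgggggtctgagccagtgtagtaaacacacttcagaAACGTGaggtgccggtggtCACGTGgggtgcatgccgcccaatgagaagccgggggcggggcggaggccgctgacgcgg
Nr1d1: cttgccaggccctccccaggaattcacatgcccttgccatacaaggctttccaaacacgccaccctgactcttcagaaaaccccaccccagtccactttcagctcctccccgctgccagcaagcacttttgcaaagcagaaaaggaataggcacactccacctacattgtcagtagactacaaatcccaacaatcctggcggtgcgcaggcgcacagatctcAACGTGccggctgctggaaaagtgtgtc
Arntl has a ROR core at position 31 of a transcript that starts on the plus strand of chromosome 7, and the 27 bases around it (chr7:113207531-113207557) are shown with the core in capitals.
Arntl ROR core: aggcagaaagTAGGTCAgggacggagg

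Total counts ran from 1650260 in PiZ library 1 to 3064385 in PiZ library 3. Levels below are CPM, that is counts scaled to the TMM-adjusted size of each library. Log2 fold changes compare PiZ/Chop-/- with PiZ in edgeR's quasi-likelihood fit, with positive values where PiZ/Chop-/- was higher and p-values adjusted by Benjamini-Hochberg over the 8669 genes that passed a filter on low counts. Separate mice are not named for the libraries, so p-values cover the spread among these libraries, which may in part be technical. Ddit3 stood at 191, 141, 191 and 85.4 CPM in PiZ libraries 1 to 4 and at 3.72, 1.72, 2.48 and 4.19 CPM in PiZ/Chop-/- libraries 1 to 4, so it followed the labels in all 8. Summed CPM of the 19 hepatocyte markers found ran from 71431 to 87852 in PiZ and from 66875 to 77617 in PiZ/Chop-/- libraries, and none of them was at 0 in every library. These are bulk samples, in which fewer cells of a type and less RNA per cell cannot be told apart.

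The clock genes set 2 libraries, 1 of each genotype, apart from the rest. PiZ library 1 and PiZ/Chop-/- library 2 had the lowest Dbp, Per3, Nr1d1 and Nr1d2 and the highest Clock of all 8. These 2 were also the smallest libraries, with 1650260 and 1850275 counts against 1937449 to 3064385 in the other 6, and over all tested genes they correlated with the other libraries of their genotype at a mean r of 0.931 and 0.932, against 0.914 to 0.951. The part of library size in the clock gene pattern was not tested. PiZ library 4 lay between these and the others for Dbp and Per3. PiZ/Chop-/- library 1 stood apart in another way, with the highest Nr1d1 and the lowest Cry1. The fold changes and the correlations between clock genes are therefore given with and without PiZ library 1 and PiZ/Chop-/- library 2.

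**Figure D1:**
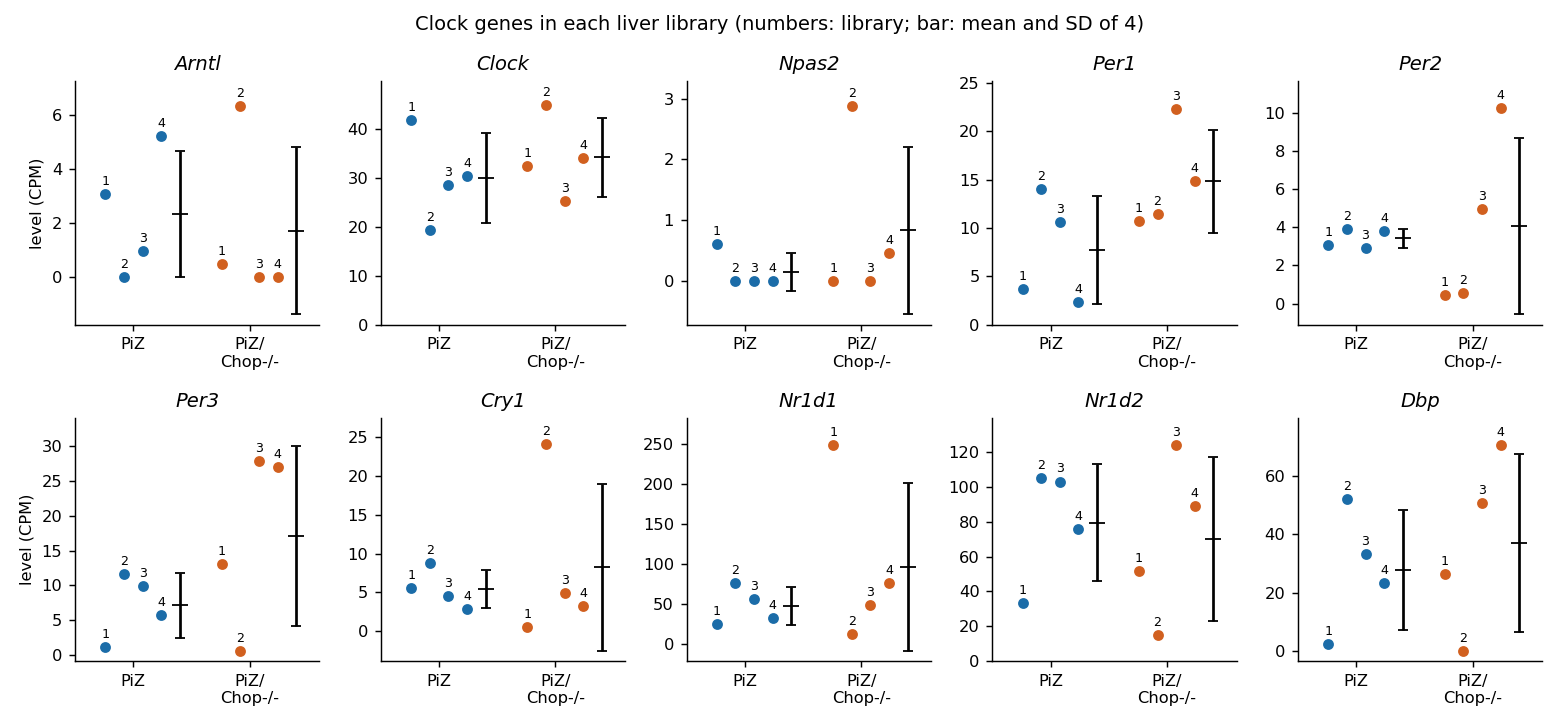
Level (CPM, linear axis) of each of the 10 clock genes in the 8 libraries, with the library number above each point and the mean and SD of 4 libraries beside each group. PiZ library 1 and PiZ/Chop-/- library 2 are the 2 lowest for Dbp, Per3, Nr1d1 and Nr1d2, and the genotypes overlap for every gene.

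Of the activators, Arntl and Npas2 were close to the counting limit and Clock was readily measured. Arntl (ENSMUSG00000055116, plus strand, chr7:113207465-113314126, mm10) had 5, 0, 3 and 11 counts in PiZ libraries 1 to 4, while PiZ/Chop-/- libraries 1 to 4 held 1, 11, 0 and 0. Its highest counts were in PiZ/Chop-/- library 2 and PiZ libraries 4 and 1, at 6.32, 5.22 and 3.08 CPM, and a count of 0 allows up to 1.46, 1.49 and 1.40 CPM in PiZ library 2 and PiZ/Chop-/- libraries 3 and 4 (3 counts each, for counting error only). Npas2, which can stand in for CLOCK as the partner of BMAL1, had 5 counts in PiZ/Chop-/- library 2, 1 count each in PiZ library 1 and PiZ/Chop-/- library 4, and 0 in the other 5. Arntl and Npas2 were too low to be tested in the fit. Clock (chr5:76209868-76304792, minus strand), a histone acetyltransferase and the steady partner of BMAL1, stood at 41.8, 19.4, 28.6 and 30.4 CPM in PiZ libraries 1 to 4 and at 32.5, 44.8, 25.3 and 34.0 CPM in PiZ/Chop-/- libraries 1 to 4. It was highest in PiZ/Chop-/- library 2 and PiZ library 1, and the whole span was 2.31-fold.

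Among the repressors, Per3 varied most and did so within both genotypes. Per3 (chr4:151003652-151044665, minus strand), whose promoter with 2 D-boxes is shown above, stood at 1.23, 11.7, 9.97 and 5.69 CPM in PiZ libraries 1 to 4 and at 13.0, 0.575, 27.8 and 27.0 CPM in PiZ/Chop-/- libraries 1 to 4. The 2 low libraries rest on 2 and 1 counts, against 58 in the highest. Per1 (chr11:69095217-69109960, plus strand), a repressor that glucocorticoids and light cues also induce, stood at 3.69, 14.1, 10.6 and 2.37 CPM in PiZ and at 10.7, 11.5, 22.3 and 14.9 CPM in PiZ/Chop-/- libraries. PiZ libraries 1 and 4 were below all the others for Per1, while PiZ/Chop-/- library 2, low for Per3, was not. Per2 (chr1:91415982-91459324, minus strand), which with PER1 forms the core of the repressor complex, had 5, 8, 9 and 8 counts in PiZ and 1, 1, 10 and 22 in PiZ/Chop-/- libraries. Its PiZ libraries lay close together, from 2.89 to 3.89 CPM, and its PiZ/Chop-/- libraries spread from 0.465 to 10.2 CPM around them. Cry1 (chr10:85131700-85185064, minus strand), the strongest repressor of the BMAL1 pair, stood at 5.54, 8.74, 4.50 and 2.85 CPM in PiZ and at 0.465, 24.1, 4.96 and 3.26 CPM in PiZ/Chop-/- libraries. PiZ/Chop-/- library 2 was the highest of all 8 and PiZ/Chop-/- library 1 the lowest, with 42 counts against 1.

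The nuclear receptors and Dbp were the most abundant of the rhythmic members in read counts and carried the clearest differences between libraries. Nr1d1 (chr11:98767932-98775333, minus strand), the haem receptor REV-ERB alpha that represses Arntl, stood at 24.6, 75.8, 55.9 and 31.8 CPM in PiZ and at 249, 11.5, 48.2 and 75.5 CPM in PiZ/Chop-/- libraries, a span of 21.7-fold. PiZ/Chop-/- library 1, with 537 counts, was the highest by more than 3 times, and PiZ/Chop-/- library 2, with 20 counts, the lowest. Nr1d2 (chr14:18204054-18239127, minus strand), its paralog REV-ERB beta, stood at 33.2, 105, 103 and 75.9 CPM in PiZ and at 51.6, 14.9, 124 and 89.0 CPM in PiZ/Chop-/- libraries, a span of 8.27-fold. The count of Nr1d1 divided by that of Nr1d2 was 4.84 in PiZ/Chop-/- library 1 and between 0.390 and 0.848 in the other 7, a ratio that needs no scaling between libraries. Dbp (chr7:45705088-45710203, plus strand), a PAR bZIP factor and direct target of the BMAL1 pair, stood at 2.46, 52.0, 33.1 and 23.3 CPM in PiZ and at 26.5, 0, 50.6 and 70.3 CPM in PiZ/Chop-/- libraries. In PiZ/Chop-/- library 2 it had 0 counts, which allows up to 1.72 CPM, and in PiZ library 1 it had 4 counts, against 49 to 151 in the other 6.

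Reads of the dawn genes Arntl and Npas2 were set against those of Dbp and Per3 in the same library, a choice made after the values were seen. The dawn pair made up 94.1% of these reads in PiZ/Chop-/- library 2 (16 of 17 counts, exact binomial 95% interval 71.3 to 99.9%) and 50% in PiZ library 1 (6 of 12 counts, 21.1 to 78.9%). PiZ library 4 came next with 15.3% (11 of 72 counts, 7.88 to 25.7%). The intervals cover counting error at most, not the spread between libraries. They treat reads as independent molecules, and may be too narrow because PCR copies cannot be told apart. In the other 5 libraries the share was at most 2.19% (3 of 137 counts in PiZ library 3, 0.454 to 6.27%), and in PiZ library 2 and PiZ/Chop-/- library 3 it was 0 of 131 and 0 of 158 counts, which allows up to 2.78% and 2.31% by the same interval. The 3 libraries with the highest shares included both genotypes.

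The spread within groups was wide for 6 of the 7 tested members and ordinary for Clock. The within-group SD of log2 CPM was 2.38 for Dbp, 1.63 for Per3, 1.37 for Nr1d1, 1.28 for Cry1, 1.07 for Nr1d2 and 0.80 for Per1. For Dbp 99.98% of the 8669 tested genes had a smaller SD, and for Per1, the lowest of these 6, 95.2% did. Clock had an SD of 0.39, close to the median of 0.37 over all tested genes. The biological coefficient of variation, in which edgeR sets counting noise aside, gave a like picture, with a median of 0.78 over the 7 members against 0.25 over all tested genes.

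Distances between libraries over the 7 tested members followed genotype little. The root mean square difference in log2 CPM had a median of 1.40 over the 12 pairs of libraries of the same genotype and of 1.42 over the 16 pairs of different genotype. Over all tested genes the same medians were 0.67 and 0.73. The closest pair by clock genes was PiZ/Chop-/- libraries 3 and 4 (0.47), followed by PiZ libraries 2 and 3 (0.50), and then by PiZ library 2 with PiZ/Chop-/- library 3 (0.65), 1 of each genotype. PiZ library 1 was nearest to PiZ/Chop-/- library 2 (1.30), and the reverse held too. The farthest pair, PiZ/Chop-/- libraries 2 and 4 (3.31), shared a genotype, and differed 4.86 times as much over the clock genes as over all tested genes. These distances are descriptions and carry no test.

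**Figure D2:**
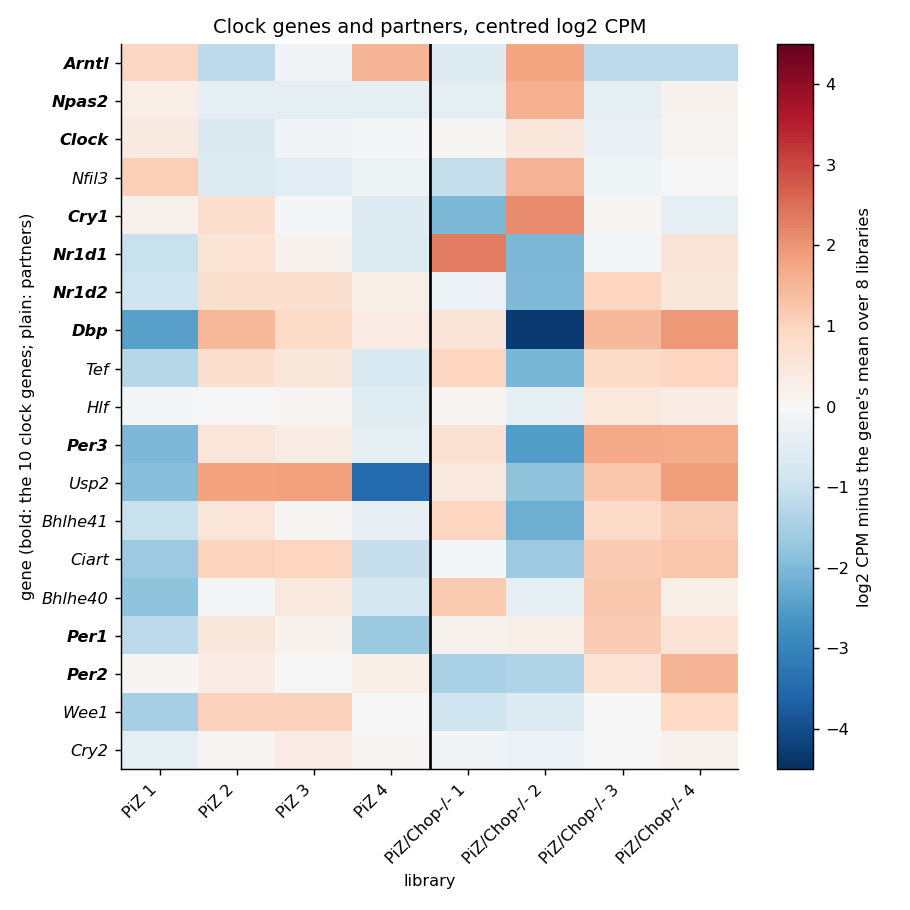
Log2 CPM of the 10 clock genes (bold) and 9 partner genes (plain) in the 8 libraries, each gene centred on its mean over the libraries, with red above and blue below that mean and a black line between the genotypes. PiZ/Chop-/- library 2 and, less fully, PiZ library 1 have Dbp, Per3, Tef and Nr1d2 below and Arntl, Npas2, Clock and Nfil3 above the mean, and PiZ/Chop-/- library 1 has the highest Nr1d1.

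Against this spread, no clock gene differed between PiZ/Chop-/- and PiZ livers by the test. Of the 7 members with enough counts, 0 passed an adjusted p of 0.05 in edgeR, and 0 had an unadjusted p under 0.05. The background over all tested genes was 1.03% past the adjusted threshold (89 of 8669) and 13.1% under the unadjusted one. DESeq2 gave 0 calls among the 8 members for which it returned an adjusted p (background 2.05%), and limma-voom 0 of 7 (background 0.692%), with 1 (Per1) under an unadjusted 0.05. The genotypes overlapped for all 10 members, while 7.88% of tested genes had groups that did not overlap. None of the 19 other fits, with backgrounds of 0.514 to 3.04%, called a member, the lowest adjusted p in any of them being 0.109 (Per3, without PiZ/Chop-/- library 2). In some of these fits Per1 or Per3 had an unadjusted p under 0.05. The lowest was 0.00385 in edgeR (Per3, without PiZ/Chop-/- library 2). At this spread the SE of the Dbp and Nr1d1 values leaves room for large differences in either direction, so a difference was not detectable, which does not show that the levels were alike.

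The single values were as follows. Clock averaged 30.1 ± 9.19 CPM in the PiZ group and 34.2 ± 8.06 CPM in the PiZ/Chop-/- group (SD, n = 4 libraries), and the log2 fold change was 0.19 (SE 0.26, edgeR adjusted p = 0.802). Per1 came nearest to the threshold of the 7, with 7.69 ± 5.59 and 14.9 ± 5.31 CPM in the same order and a fold change on the log2 scale of 0.91 (SE 0.45, adjusted p = 0.405). Per3 had 7.14 ± 4.67 and 17.1 ± 12.9 CPM and 1.22 (SE 0.82, adjusted p = 0.581). Cry1 had 5.41 ± 2.48 and 8.21 ± 10.8 CPM, and its fold change of 0.56 (SE 0.85, adjusted p = 0.831) turned to -0.88 without PiZ/Chop-/- library 2. Nr1d1 had 47.0 ± 23.4 and 96.2 ± 106 CPM, and its fold change of 1.03 (SE 0.87, adjusted p = 0.677) was -0.059 without PiZ/Chop-/- library 1. Nr1d2 had 79.2 ± 33.4 and 69.8 ± 46.9 CPM and -0.19 (SE 0.61, adjusted p = 0.930), or 0.14 with PiZ/Chop-/- library 2 left out. Dbp had 27.7 ± 20.6 and 36.9 ± 30.4 CPM and 0.40 (SE 1.06, adjusted p = 0.914), or -0.11 with PiZ/Chop-/- library 4 left out. The signs of these 4 fold changes thus turned on 1 library each.

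The 3 members outside the fit had exact permutation tests, two-sided, over the 70 ways to assign 4 of 8 libraries. The value tested was the difference in mean log2 CPM, whose sign can differ from that of the CPM means printed here. Arntl averaged 2.32 ± 2.32 CPM in the PiZ group and 1.70 ± 3.09 CPM in the PiZ/Chop-/- group (SD, n = 4 libraries; exact permutation p = 0.571). Npas2 stood at 0.154 ± 0.308 and 0.835 ± 1.38 CPM (exact permutation p = 0.714, n = 4 each). Per2 stood at 3.41 ± 0.502 and 4.06 ± 4.63 CPM (exact permutation p = 0.714, n = 4 each). Its tested difference in mean log2 CPM was -0.33, with PiZ/Chop-/- lower, although its mean CPM was higher. Over all 10 members the exact p ran from 0.114 (Per1) to 0.914 (Cry1 and Dbp), where 0.0286 is the smallest that 4 against 4 can give. The differences in mean log2 CPM of Cry1 (-0.14) and Dbp (-0.16) were also opposite in sign to those of their mean CPM.

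Leaving out PiZ library 1 and PiZ/Chop-/- library 2 together, a choice made after seeing the data, brought no call. The SE went from 1.06 to 0.36 for Dbp, from 0.61 to 0.29 for Nr1d2, from 0.82 to 0.38 for Per3 and from 0.87 to 0.58 for Nr1d1, for all of which these were the 2 lowest libraries, and from 0.45 to 0.49 for Per1 and from 0.26 to 0.27 for Clock. The log2 fold changes were then 0.44 for Dbp (adjusted p = 0.642, edgeR), -0.11 for Nr1d2 (0.912), 1.30 for Per3 (0.133), 1.19 for Nr1d1 (0.398), 0.81 for Per1 (0.50) and 0.22 for Clock (0.781). Cry1 then had too few counts to be tested. Over all genes 125 passed in that fit (1.42% of 8784), 65 of them among the 89 of the fit with 8 libraries.

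**Figure D3:**
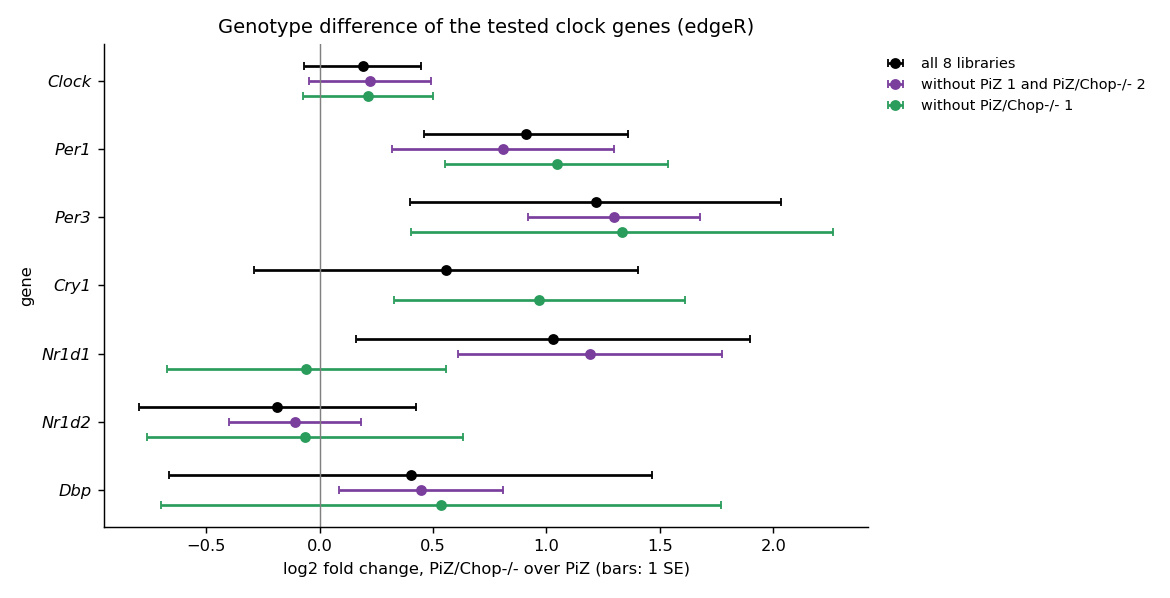
Log2 fold change (PiZ/Chop-/- over PiZ) with 1 SE on each side for the 7 tested clock genes, with all 8 libraries, without PiZ library 1 and PiZ/Chop-/- library 2, and without PiZ/Chop-/- library 1. The bars of Dbp shorten from 1.06 to 0.36 without the 2 libraries, and the Nr1d1 point moves from 1.03 to -0.059 without PiZ/Chop-/- library 1.

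Whether the clock genes moved together from library to library was asked of the 21 pairs of tested members, with Pearson's r and Spearman's rho of log2 CPM over the 8 libraries. By Pearson's r 4 pairs passed after Benjamini-Hochberg adjustment over the 21, and by Spearman's rho 0 did. Dbp tracked Per3 (r = 0.95, exact permutation p = 0.000595, adjusted p = 0.0125; rho = 0.83, adjusted p = 0.152) and Nr1d2 (r = 0.95, exact permutation p = 0.00181, adjusted p = 0.0190; rho = 0.81, adjusted p = 0.152). Per3 tracked Nr1d2 as well (r = 0.87, exact permutation p = 0.00618, adjusted p = 0.0432; rho = 0.74, adjusted p = 0.208). Clock ran opposite to Nr1d2 (r = -0.83, exact permutation p = 0.00880, adjusted p = 0.0462; rho = -0.90, adjusted p = 0.0958). With group means removed and pairings kept within genotypes, the first 3 pairs passed (adjusted p = 0.0365, 0.0486 and 0.0365) and Clock with Nr1d2 did not (r = -0.82, exact permutation adjusted p = 0.0729).

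None of the 21 pairs passed without PiZ library 1 and PiZ/Chop-/- library 2, and 2 had an unadjusted exact permutation p under 0.05. These 2 libraries were the farthest from the median of Dbp, Per3 and Nr1d2. Over the other 6 libraries r was 0.80 for Dbp with Per3 (exact permutation p = 0.0611, adjusted p = 0.321), 0.60 for Dbp with Nr1d2 (exact permutation p = 0.212), 0.35 for Per3 with Nr1d2 (exact permutation p = 0.514) and -0.58 for Clock with Nr1d2 (exact permutation p = 0.229). So none of the 4 calls held without these libraries, though fewer libraries also leave less to test with. Without the 2 libraries farthest in Clock, PiZ library 2 and PiZ/Chop-/- library 2, Clock with Nr1d2 gave -0.89 (exact permutation p = 0.0181). Within genotypes, over 4 libraries each and so without a test, Dbp with Per3 gave 0.99 in PiZ and 1.00 in PiZ/Chop-/-, and Dbp with Nr1d2 gave 0.99 and 0.96. These values include PiZ library 1 and PiZ/Chop-/- library 2, each the lowest of its group for Dbp, Per3 and Nr1d2. They are therefore not separate from those libraries. The pairs share libraries, so they are not independent of each other.

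The signs of some correlations also changed without those 2 libraries, mostly in pairs with Clock or Cry1. Over all 8 libraries, the 10 pairs among Per1, Per3, Nr1d1, Nr1d2 and Dbp, which peak from day to dusk in textbook order, all had a positive r, from 0.29 for Per1 with Nr1d2 to 0.95. Of the 10 pairs that set one of these against Clock or Cry1, 9 had a negative r, the exception being Per1 with Cry1 (r = 0.15, adjusted p = 0.719). Without PiZ library 1 and PiZ/Chop-/- library 2, 8 of the first 10 were positive and 4 of the second 10 negative, and 8 of all 21 pairs turned sign.

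Single pairs show how the sign turned. Cry1 with Nr1d2 went from -0.44 over 8 libraries to 0.91 over these 6 (exact permutation p = 0.0153, adjusted p = 0.160), and Cry1 with Dbp from -0.59 to 0.54 (adjusted p = 0.548). Nr1d1 with Dbp went from 0.72 (adjusted p = 0.113) to -0.056, and Nr1d1 with Nr1d2 from 0.54 to -0.66 (adjusted p = 0.535). Cry1 with Nr1d1 kept its sign, at -0.81 over 8 libraries (exact permutation p = 0.0262, adjusted p = 0.0918) and -0.64 over 6. Without PiZ/Chop-/- libraries 1 and 2, which held 1 and 42 Cry1 counts and 537 and 20 Nr1d1 counts, Cry1 with Nr1d1 gave 0.24 and Nr1d1 with Dbp gave 0.87. Per1 with Per3 went from 0.56 to 0.86 over the 6 (exact permutation p = 0.00694, adjusted p = 0.146).

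**Figure D4:**
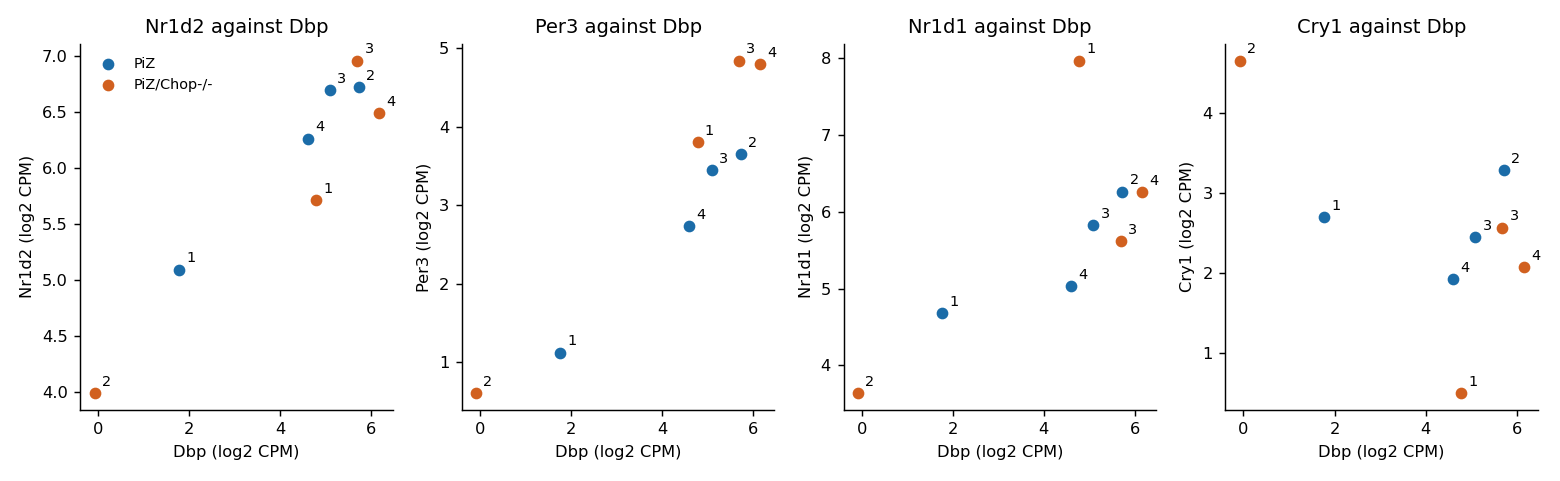
Log2 CPM of Nr1d2, Per3, Nr1d1 and Cry1 against log2 CPM of Dbp, 1 point per library with its number, coloured by genotype. Nr1d2 and Per3 follow Dbp with PiZ library 1 and PiZ/Chop-/- library 2 at the low end, PiZ/Chop-/- library 1 lies above the others for Nr1d1, and PiZ/Chop-/- library 2 lies above the others for Cry1.

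Of 40 clock partners and modifiers 34 were tested and 0 passed, with 21 fold changes above 0 and 13 below (median 0.16, against -0.0016 over all tested genes). PiZ library 1 and PiZ/Chop-/- library 2 were the 2 lowest for 3 of the 34 (Tef, Bhlhe41 and Cry2; 8.82%, against 3.55% of all tested genes) and the 2 highest for 1 (Nfil3; 2.94%, against 3.61%), a count made after the values were seen. Tef, a PAR bZIP factor like DBP, stood at 105, 430, 365 and 160 CPM in PiZ and at 505, 60.9, 466 and 509 CPM in PiZ/Chop-/- libraries (log2 fold change 0.54, SE 0.72, adjusted p = 0.805). It was lowest in PiZ/Chop-/- library 2 and PiZ library 1, with PiZ library 4 next. Hlf, the remaining PAR bZIP factor, moved little, from 23.3 to 47.7 CPM over the 8 libraries. Usp2, a deubiquitinase under direct clock control, stood at 12.9, 180, 187 and 3.80 CPM in PiZ and at 68.8, 13.8, 121 and 190 CPM in PiZ/Chop-/- libraries, a span of 49.9-fold (log2 fold change 0.026, SE 1.23, adjusted p = 0.997). For Usp2 PiZ library 4 was the lowest of all, below PiZ library 1.

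Ciart, Bhlhe41 and Cry2 had PiZ library 1 and PiZ/Chop-/- library 2 as their 2 lowest, while Bhlhe40 and Wee1 did not. Ciart, a CLOCK repressor, had 0, 10, 15 and 1 counts in PiZ and 4, 0, 11 and 13 in PiZ/Chop-/- libraries, too few to be tested. Bhlhe40 (11.7 to 102 CPM; log2 fold change 1.05, adjusted p = 0.423) and Bhlhe41 (0 to 8.38 CPM; 0.85, adjusted p = 0.611), which compete for E-boxes, were at their lowest in PiZ library 1 and PiZ/Chop-/- library 2 respectively. Nfil3, which opposes the PAR bZIP factors at D-boxes, was highest in these 2 libraries, at 33.3 CPM in PiZ/Chop-/- library 2 and 24.0 CPM in PiZ library 1 against 4.65 to 10.7 CPM in the other 6 (0.32, adjusted p = 0.873). Cry2, a paralog of Cry1, ranged from 17.8 to 31.2 CPM (-0.11, adjusted p = 0.888). Wee1, a cell cycle kinase under E-box control, stood at 3.08, 22.3, 22.2 and 10.4 CPM in PiZ and at 5.11, 6.32, 10.4 and 20.0 CPM in PiZ/Chop-/- libraries (-0.50, adjusted p = 0.757). Timeless had 2 to 8 counts a library and was not tested. The partners nearest to the threshold were Zfhx3 (0.53, adjusted p = 0.200), Kat2b (0.57, 0.367) and Usp7 (0.47, 0.394), the first of them with groups that did not overlap.

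Of 40 rhythmic liver outputs 35 were tested, 1 fell and 0 rose (median -0.045), while 1.03% of all tested genes (89 of 8669) passed. The one that fell was Cyp7a1, the rate-limiting enzyme of bile acid synthesis, which answers to bile acid feedback as well as to DBP and the NR1D receptors. It stood at 404, 314, 295 and 204 CPM in PiZ and at 86.9, 63.8, 86.9 and 114 CPM in PiZ/Chop-/- libraries (log2 fold change -1.79, SE 0.23, adjusted p = 0.000758, edgeR; exact permutation p = 0.0286, the smallest possible, n = 4 each). The groups did not overlap. Within PiZ, library 1 had the lowest Dbp and the highest Cyp7a1. Within PiZ/Chop-/-, library 2 was the lowest and library 4 the highest for both genes. A relation of Cyp7a1 to Dbp was not tested. Without PiZ library 1 and PiZ/Chop-/- library 2 the log2 fold change of Cyp7a1 was -1.50 (adjusted p = 0.00995, edgeR). Rgs16, a fasting- and clock-controlled regulator of G protein signals, ran from 0.615 to 18.0 CPM in PiZ and from 0.575 to 29.3 CPM in PiZ/Chop-/- libraries, lowest in the same 2 libraries as Dbp.

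Lists of systemic cues that can act on liver clock genes held 1 call, while 1.03% of all tested genes (89 of 8669) were called. Of 16 temperature and heat shock genes 13 were tested and 0 passed (median -0.051), with Dnaja1 at -0.70 (adjusted p = 0.312), Hspd1 at -0.47 (0.347) and Dnajb1 at 1.33 (0.446). Dnajb1, a co-chaperone induced by heat shock, stood at 187 CPM in PiZ/Chop-/- library 2 and at 19.3 to 41.0 CPM in the other 7. Hsph1 ran from 26.0 to 62.6 CPM and Cirbp, a cold-inducible RNA-binding protein, from 10.9 to 34.4 CPM, with the lowest Cirbp in PiZ/Chop-/- library 2. Hspa1b and Rbm3 had too few counts to be tested. Of 20 glucocorticoid response genes, a list that also holds Per1, 18 were tested and 1 fell (median 0.10). This was Lcn2, lipocalin 2, an acute-phase protein, which averaged 90.3 ± 41.4 CPM in PiZ livers and 18.0 ± 8.13 CPM in PiZ/Chop-/- livers (n = 4 libraries, SD), a log2 difference of -2.30 (SE 0.38, edgeR adjusted p = 0.0113). It did not pass when PiZ/Chop-/- library 1 or 3 was left out (adjusted p = 0.0688 and 0.0626). Of 25 fasting and feeding genes 22 were tested and 0 passed (median 0.22), with Scd1, a fatty acid desaturase, at 1.33 (adjusted p = 0.281), Pck1 at 0.48 (0.365) and Pklr at 0.39 (0.418). The part of these cues in the clock gene pattern was not tested.

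The genes most like Dbp over the 8 libraries, among 5111 named protein-coding genes whose log2 CPM averaged 4 or more, were Cnppd1 (r = 0.98), Nr1d2 (0.95), Gpihbp1 (0.94), Tef (0.93) and Cops3 (0.93). The most opposite were Hspe1 (-0.96), Lnx2 (-0.95), Ncbp3 (-0.94), Stip1 (-0.93) and Paqr9 (-0.92). All 5 of the latter were highest in PiZ/Chop-/- library 2, and all 5 of the former were lowest there. Dbp itself had 0 counts in that library and 4 in PiZ library 1. Of these genes only Nr1d2 was also set against Dbp without those 2 libraries (r = 0.60). Cnppd1 stood at 89.8 and 79.9 CPM in PiZ library 1 and PiZ/Chop-/- library 2 and at 126 to 143 CPM in the other 6. In all, 7 genes had an r above 0.9 and 6 below -0.9. For Clock, which stood in for Arntl because Arntl and Npas2 were not tested, the most alike were Agpat2 (0.93), Papss1 (0.93), Hnrnpa2b1 (0.92), Bag6 (0.90) and Ints7 (0.90), and the most opposite Atg14 (-0.90), Ccnd1 (-0.89), Bnip3 (-0.89), Abhd13 (-0.87) and Trmt112 (-0.87). These correlations describe 8 shared libraries and are given without a test.

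Marker lists of other cell types held no call, and their summed CPM is given beside the clock genes. Over all tested genes 4350 of 8669 fold changes were below 0. Kupffer cell and macrophage markers (17 of 19 tested below 0) summed to 1301 to 1825 CPM in PiZ and 1007 to 1198 CPM in PiZ/Chop-/- libraries, and PiZ library 1 and PiZ/Chop-/- library 2 were the lowest of their groups. Sinusoidal endothelial markers (6 of 19 below 0) summed to 645 to 792 and 831 to 920 CPM, and stellate cell and fibroblast markers (11 of 11 below 0) to 1112 to 2362 and 1274 to 1870 CPM. Cholangiocyte markers summed to 54.6 to 98.7 and 47.2 to 69.5 CPM, T, NK and B cell markers to 69.5 to 86.4 and 44.6 to 77.3 CPM, and red cell genes to 354 to 834 and 344 to 1460 CPM. Neutrophil markers, 2 of 13 tested, summed to 92.5 CPM in PiZ/Chop-/- library 2 and to 6.04 to 39.3 CPM in the other 7. Pancreas genes summed to 96.8 to 165 and 78.9 to 208 CPM, and adipose and muscle genes to at most 28.3 CPM. The sums of Kupffer, endothelial and, narrowly, adipose and muscle markers did not overlap between the genotypes, which was not tested. Hepatocyte markers summed to 76640 CPM in PiZ library 1 and 71205 CPM in PiZ/Chop-/- library 2, within the range of the other 6. Markers listed at 0 in every library numbered 1 each for cholangiocytes, lymphocytes, neutrophils and red cells, 3 for pancreas and 2 for fat and muscle. The part of other cell types in the clock gene pattern was not tested.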

How the data were processed

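Gene expression was measured in 8 mouse liver libraries, 4 PiZ and 4 PiZ/Chop-/-. The files deposited by the authors hold whole-number read counts for each gene, which their headers call raw. The submitters' processing notes name STAR, HTSeq and mm10. Versions, annotation, strand setting, and how duplicates and multiply mapped reads were handled are not stated there. Reads come from 3' ends, so no length correction was made.

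Groups and replicate numbers came from the sample titles. Symbols and positions came from GENCODE M21 (mm10), which lacked 148 of the 52551 row names, 1 of them the human transgene SERPINA1. filterByExpr (minimum count 10) kept 8669 genes. edgeR 4.0.16 in R 4.3.3 (TMM, glmQLFit robust, glmQLFTest, no covariate) gave the fold changes, and the SE is the size of the log2 fold change divided by the square root of F. CPM used TMM-scaled library sizes, and log2 CPM a prior count of 2. Correlation p-values came from all 40320 pairings. The spread is the pooled SD within groups. Any library pair differed by a chi-square per degree of freedom of at least 5.08 over genes, above sampling noise. Counts of 0 allow up to 3 counts, for counting error only.

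The named genes were the 10 members, 11 clock partners and 4 temperature genes whatever their outcome (1 partner is not reported here), every list gene past an adjusted p of 0.05 or, in a list with none, the 3 of lowest p, and the 5 genes of highest and lowest r with Clock and Dbp. Rgs16, Nr1i3, Alas1, Elovl3 and Cdkn1a were chosen after their values were seen. Members and lists were chosen with earlier results of these data known. Alternatives were RLE, upper quartile and library size scaling, DESeq2 1.42.0, limma-voom (limma 3.58.1), no filter, a minimum of 5 CPM in 4 libraries, non-robust dispersions, a replicate block and each library left out. The 2 joint omissions of libraries were added after seeing the data. The fit was tested on simulated data.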

Additional observations from a re-analysis of the deposited data

Results flagged for a closer look

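In groups of 4 libraries, the highest or lowest log2 CPM was set against Dixon's 95% critical value for 10 clock genes and 11 partners, 42 groups in all, of which chance would mark about 1 in 20. A single library stood far from the rest of its group in 3 of them. Tef was low in PiZ/Chop-/- library 2, with a gap of 0.958 of the group's range. Bhlhe41 was low in the same library, where it had 0 counts, with a gap of 0.927. Npas2 was high in PiZ library 1 with a gap of 1, which rests on 1 count against 0 in the other 3 PiZ libraries.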

How the results depend on the processing

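None of the alternatives called any of the 10 clock genes. The tested members' fold changes kept their sign and side of the threshold in 124 of 131 values. Cry1 turned to -0.41 with limma-voom, and to -1.15 with PiZ libraries 1 and 4 and PiZ/Chop-/- library 2 left out, and ran from -0.88 to 0.97 over single omissions. Dbp turned to -0.48 with limma-voom and ran from -0.11 to 0.86, Nr1d1 from -0.059 to 1.40 and Nr1d2 from -0.61 to 0.14. Over all genes 89 calls became 209 with DESeq2, 357 with no filter and 279 with those 3 libraries left out, and 46 to 169 over single omissions. Partner and rhythmic output genes past the threshold numbered 1 in the main fit (Cyp7a1), where 1.03% of all tested genes passed. They were 4 with DESeq2 (2.05% of all tested genes), 4 with no filter (1.8%) and 1 to 4 over single omissions (0.514 to 1.88%). Without PiZ library 1 and PiZ/Chop-/- library 2 they were 4 (1.42%), and without the 3 libraries 5 (3.04%). Cyp7a1 was among them in each. Correlated pairs, 4 of 21, ran from 0 (without PiZ library 1, and without PiZ/Chop-/- library 2) to 7 (without PiZ/Chop-/- library 1), and were 3 with group means removed, 3 with library size scaling and 0 without PiZ library 1 and PiZ/Chop-/- library 2, where r of Cry1 with Dbp turned to 0.54. The causes of these shifts were not tested, and omissions also leave fewer libraries. The replicate block gave 76 calls, 61 of them among the 89, and no clock gene. Same-numbered libraries deviated together with r from -0.051 to 0.049, against -0.130 to 0.122 for other numbers, and 2 of 8 libraries agreed best with their own number. No pairing by number was thus seen, but such values cannot exclude it, and the labels do not say what the numbers stand for. Depth limits Arntl, Npas2 and Per2 most, at 0 to 22 counts a library.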

Other observations

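Elovl3 and Alas1 differed within the PiZ/Chop-/- group between libraries 1 and 2 and libraries 3 and 4, while Nr1i3 and Cdkn1a had library 2 apart from the other 3. These 4 genes were picked after their values were seen, and no split within the group was tested. Elovl3, a fatty acid elongase and a known rhythmic target of NR1D1, stood at 15.4, 35.9, 65.6 and 15.7 CPM in PiZ and at 417, 860, 45.7 and 59.6 CPM in PiZ/Chop-/- libraries 1 to 4 (log2 fold change 3.35, SE 1.14, adjusted p = 0.300, edgeR). DESeq2 called it (adjusted p = 0.0413). Alas1, the first enzyme of haem synthesis, whose product is the ligand of the NR1D receptors, stood at 80.0, 116, 105 and 97.3 CPM in PiZ and at 153, 129, 591 and 631 CPM in PiZ/Chop-/- libraries (1.91, SE 0.56, adjusted p = 0.214). It passed with DESeq2 (adjusted p = 0.00124) and without PiZ library 1 and PiZ/Chop-/- library 2 (adjusted p = 0.0455, edgeR). Nr1i3, the xenobiotic receptor CAR, stood at 105, 123, 101 and 78.3 CPM in PiZ and at 177, 76.4, 257 and 226 CPM in PiZ/Chop-/- libraries (0.86, SE 0.30, adjusted p = 0.258), and passed without the same 2 libraries (1.13, adjusted p = 0.0410). Cdkn1a, the cell cycle inhibitor p21, stood at 12.3, 25.3, 43.7 and 9.97 CPM in PiZ and at 5.11, 64.9, 2.98 and 0.466 CPM in PiZ/Chop-/- libraries (-0.40, SE 1.21, adjusted p = 0.926). Without those 2 libraries its log2 fold change was -3.20 (SE 0.64, adjusted p = 0.0402).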
